A study of Mus musculus with 9 samples.

Results

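SR proteins are RNA-binding splicing factors whose arginine- and serine-rich domains help to define exons. Many of their own transcripts carry a poison exon, an exon that brings in an early stop codon and sends the transcript to nonsense-mediated decay, or hold back an intron. Through such exons SR proteins and the related TRA2 proteins limit their own levels, so the amount of a gene's RNA and the share of it that includes the poison exon are read side by side. The genes described here are 10 such factors, Srsf1, Srsf2, Srsf3, Srsf4, Srsf5, Srsf6, Srsf7, Srsf11, Tra2a and Tra2b, chosen by gene name from the 54660 gene identifiers of the deposited table, with all 261 of their exonic parts out of 480017. An exonic part is a piece of an exon bounded by annotated exon edges.

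RNA came from hearts of mice aged 12 weeks, and the labels do not say which parts of the heart were taken. The homozygous mice carried on both alleles a CRISPR/Cas knock-in of Rbm20, a splicing regulator of heart muscle, in which a deletion of 2 bases causes a frameshift. The heterozygous mice carried it on 1 allele, and the wild-type mice on none, with 3 libraries in each group. No other allele or agent is named in the labels, and none states that each library is a separate mouse. The p-values below therefore rest on differences among libraries, which may be technical. Heart tissue mixes muscle with other cell types.

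Libraries held 296.6 to 323.2 M inclusion counts, the reads assigned to exonic parts, of which 16.9% to 19.7% were mitochondrial. Rbm20 stood at 66, 51.8 and 54.7 CPM (inclusion counts scaled to a common library total) in the homozygous, 85.5, 68.4 and 90.2 in the heterozygous and 105, 104 and 132 in the wild-type libraries, and its homozygous total was lower than the wild-type one (log2 fold change -0.98, edgeR adjusted p = 0.00428). Summed over 7 heart muscle genes, the markers reached 70700 to 80000 CPM in homozygous, 57500 to 66100 in heterozygous and 58400 to 69800 in wild-type libraries. Atrial markers differed between libraries. Myl7, the atrial myosin light chain, stood at 0.0999, 0.00689 and 5.53 CPM in homozygous, 0.0933, 1.42 and 357 in heterozygous and 28.1, 3.25 and 5.88 in wild-type libraries, so that 7 of 9 libraries were at or below 5.88 CPM and heterozygous replicate 3 stood apart. Without that library the same 4 genes described below were called in homozygous against wild-type hearts. All 3 homozygous libraries, 2 heterozygous and 1 wild-type library have library numbers below 11000, and the other 3 have higher numbers, so library number and genotype are partly confounded. The labels do not say what a library number stands for.

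The sequences below show what a poison exon is in these genes. Each is an alternative exon of an annotated decay transcript in GENCODE M21 on the build GRCm38, read 5′ to 3′ on the coding strand from its first base to the first stop codon in the frame of the annotated start codon. That stop codon is in capitals. They are given for the 6 genes in which such a stop lies inside the alternative exon.
Tra2b: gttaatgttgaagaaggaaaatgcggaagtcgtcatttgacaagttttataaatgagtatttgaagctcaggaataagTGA
Tra2a: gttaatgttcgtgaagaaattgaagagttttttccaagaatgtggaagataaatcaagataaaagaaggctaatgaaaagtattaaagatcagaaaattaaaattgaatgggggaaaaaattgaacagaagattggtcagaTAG
Srsf3: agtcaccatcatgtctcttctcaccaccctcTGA
Srsf6: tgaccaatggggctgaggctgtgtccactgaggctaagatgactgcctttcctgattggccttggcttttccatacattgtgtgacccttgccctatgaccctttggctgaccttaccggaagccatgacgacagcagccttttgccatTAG
Srsf7: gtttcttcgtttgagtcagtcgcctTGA
Srsf11: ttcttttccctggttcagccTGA

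On GRCm38 the Tra2b stretch lies at chr16:22259181-22259261 on the minus strand, the Tra2a stretch at chr6:49252965-49253108 (minus) and the Srsf3 stretch at chr17:29039454-29039487 (plus). The Srsf6 stretch lies at chr2:162932815-162932966 (plus), the Srsf7 stretch at chr17:80205054-80205081 (minus) and the Srsf11 stretch at chr3:158024209-158024231 (minus). The Tra2a and Tra2b exons open with the same 9 bases, and their lengths of 306 and 276 bases, like the 456 bases of the Srsf3 exon, are multiples of 3, so it is the stop codon and not a frame shift that ends the reading frame there. In all 6 exons at least 86 bases follow the stop codon before the exon ends. In Srsf2 the exon of 104 bases lies after the normal stop codon, and in the annotated decay transcripts of Srsf4 no start codon marks the frame, so neither is shown.

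The first comparison asked how the totals of these genes and the inclusion of their poison exons and introns stood in homozygous against wild-type hearts. Srsf2, Srsf6, Srsf7 and Tra2a rose in homozygous hearts by 1.28 to 1.36-fold, while none of the 72 tested parts of the 10 genes changed its inclusion by the test. All 4 encode factors that bind exonic enhancers and promote exon inclusion. The other 6 genes did not pass, with log2 fold changes of 0.07 to 0.34, and all 10 estimates were positive with a median of 0.28, beside 0 over all genes. Over all 22049 genes tested, 4.39% were called in either direction and 1.87% were called higher (edgeR quasi-likelihood test, Benjamini-Hochberg adjusted p under 0.05), beside 4 of 10 here. At an unadjusted p under 0.05 there were 7 of the 10 and 5001 of all genes. The 10 genes were chosen with earlier results of these data known. Their shares beside all genes are therefore a description and no test of the set.

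Srsf2 (ENSMUSG00000034120), also known as SC35, had summed inclusion counts of 129, 136 and 130 CPM in homozygous, 114, 110 and 102 CPM in heterozygous and 97.9, 91.7 and 101 CPM in wild-type libraries. The 3 groups did not overlap, with the heterozygous libraries in between. The homozygous against wild-type log2 fold change was 0.44 (95% interval 0.27 to 0.62, adjusted p = 0.0132). Protein-coding genes on the opposite strand overlap Srsf2, and whether its total holds their reads cannot be told, as described below. Srsf6 (ENSMUSG00000016921), known for regulating exons of tau and other transcripts, had 89.8, 98.3 and 85.3 CPM in homozygous, 77.3, 78.2 and 64.4 in heterozygous and 69.5, 65.1 and 68.8 in wild-type libraries. Its log2 fold change was 0.43 (0.21 to 0.64, adjusted p = 0.034), and every homozygous library stood above every other library.

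Srsf7 (ENSMUSG00000024097), an SR protein with a zinc knuckle that also takes part in mRNA export, had 54.3, 63.0 and 61.6 CPM in homozygous, 53.0, 49.4 and 44.2 in heterozygous and 49.2, 42.2 and 42.1 in wild-type libraries. Its log2 fold change was 0.42 (0.20 to 0.65, adjusted p = 0.0447). The homozygous libraries were the 3 highest, the lowest of them close to the highest heterozygous one. Tra2a (ENSMUSG00000029817), which binds purine-rich exonic enhancers, had 35.1, 31 and 34.0 CPM in homozygous, 28.7, 25.7 and 24.1 in heterozygous and 26.4, 25.7 and 25.8 in wild-type libraries. Its log2 fold change was 0.36 (0.17 to 0.56, adjusted p = 0.0467), with no overlap between homozygous and the other libraries.

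**Figure D1:**
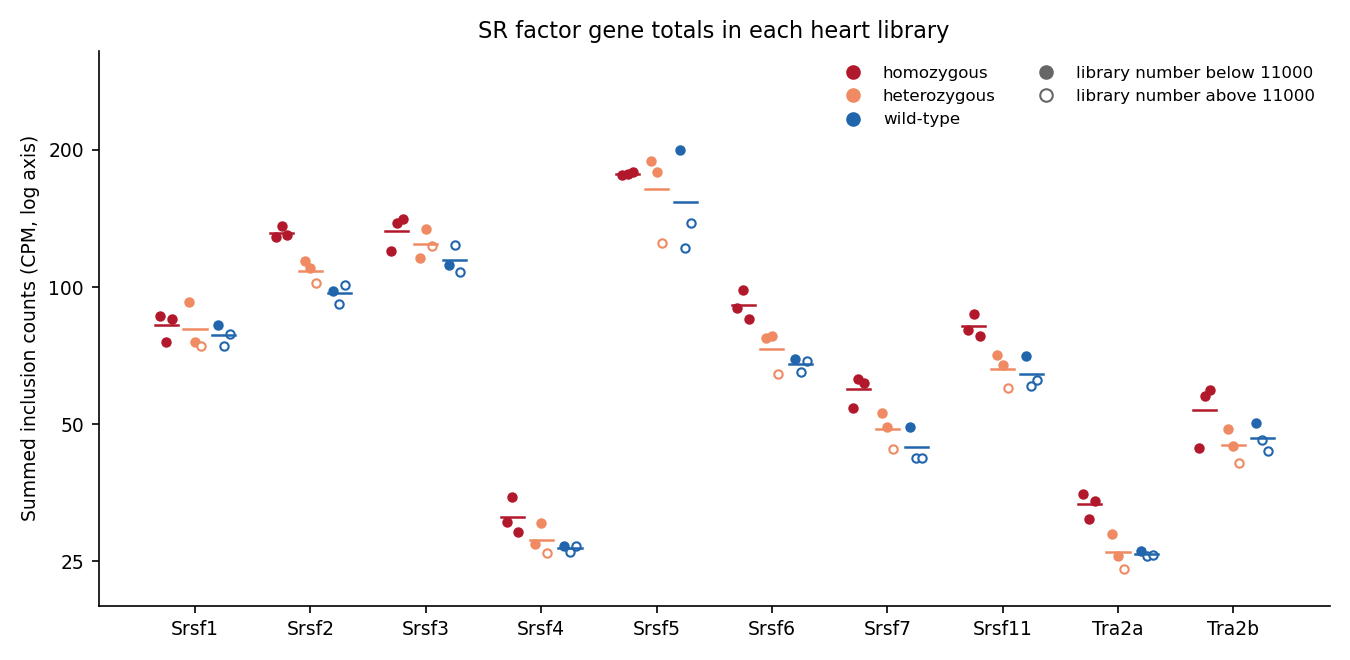
Summed inclusion counts (CPM, log axis) of the 10 SR factor genes in each library, homozygous, heterozygous and wild-type from left to right, with bars at group means and open symbols for library numbers above 11000. The homozygous libraries of Srsf2, Srsf6, Srsf7, Srsf11 and Tra2a lie above all other libraries, and Srsf5 is low in the 3 libraries with open symbols, at 122 to 138 CPM.

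Counted over the genes, all 3 homozygous libraries lay above all 3 wild-type libraries in 6 of the 10 genes, beside 14.4% of all genes tested, and above all 3 heterozygous libraries in 5, beside 8.39%. The sixth gene was Srsf4, with 30.5, 34.6 and 29.0 CPM in homozygous libraries and a wild-type mean of 26.8 ± 0.506 CPM (SD, n = 3). Srsf11, an SR-related protein of the spliceosome, missed the threshold, with 82.0 ± 4.77 CPM in homozygous and 64.6 ± 5.28 in wild-type libraries (SD, n = 3 each), a log2 fold change of 0.34 (0.13 to 0.55) with an edgeR adjusted p of 0.0666. It was called with DESeq2 (adjusted p = 0.0139), which called 11.7% of all genes.

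The remaining genes gave smaller or wider estimates. Srsf3, the smallest SR protein, had a log2 fold change of 0.22 (0.01 to 0.43, adjusted p = 0.206) and Srsf4 one of 0.22 (0.02 to 0.43, adjusted p = 0.182). Tra2b, the other TRA2 gene of the set, had 44.4, 57.7 and 59.5 CPM in homozygous libraries against 50.2, 46.1 and 43.6 CPM in wild-type libraries, and homozygous replicate 1 lay inside the wild-type range (log2 fold change 0.21, adjusted p = 0.326). Srsf1, the founding member of the family, had the flattest total, with 82.5 ± 5.94 CPM in homozygous and 78.5 ± 4.15 in wild-type libraries (SD, n = 3 each, log2 fold change 0.07, -0.16 to 0.30, edgeR adjusted p = 0.735).

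Srsf5 had the widest spread. Its totals were 176, 177 and 179 CPM in homozygous, 189, 179 and 125 in heterozygous and 200, 122 and 138 in wild-type libraries. The 3 low values were the 3 libraries with numbers above 11000, and the other 6 libraries lay between 176 and 200 CPM whatever the genotype. Its log2 fold change of 0.21 (adjusted p = 0.547) became -0.15 with library number group as a covariate.

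Library number touched the called genes as well. With the covariate the log2 fold changes were 0.39 for Srsf2, 0.32 for Srsf6, 0.28 for Srsf7 and 0.29 for Tra2a, all positive. Their edgeR adjusted p values were 0.0976, 0.222, 0.255 and 0.248, so that no member was called. The share of all genes called was 1.35% with the covariate, beside 4.39% without it. Within the low numbers alone, where wild-type has a single library, the log2 fold changes of these 4 genes were 0.42, 0.38, 0.27 and 0.33. The calls also rested on single libraries. Without wild-type replicate 2 none of the 10 genes was called, and without homozygous replicate 2 or 3 or wild-type replicate 3 only Srsf2 was. Without homozygous replicate 1 or wild-type replicate 1 Srsf2 and Srsf7 were called, and without heterozygous replicate 1 Srsf7 was lost. The share of all genes called fell as well, from 4.39% to 1.35% and 1.3% without wild-type replicates 2 and 3. It was 1.36% and 1.67% without homozygous replicates 2 and 3. Over the fits with a library left out, log2 fold changes ran from 0.41 to 0.47 for Srsf2 and 0.38 to 0.47 for Srsf6. They ran from 0.39 to 0.50 for Srsf7 and 0.33 to 0.42 for Tra2a. When only parts with a mean PSI of at least 0.95 were summed, so that poison exons and introns did not enter the total, the same 4 genes were called, with log2 fold changes of 0.46, 0.43, 0.41 and 0.43.

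**Figure D2:**
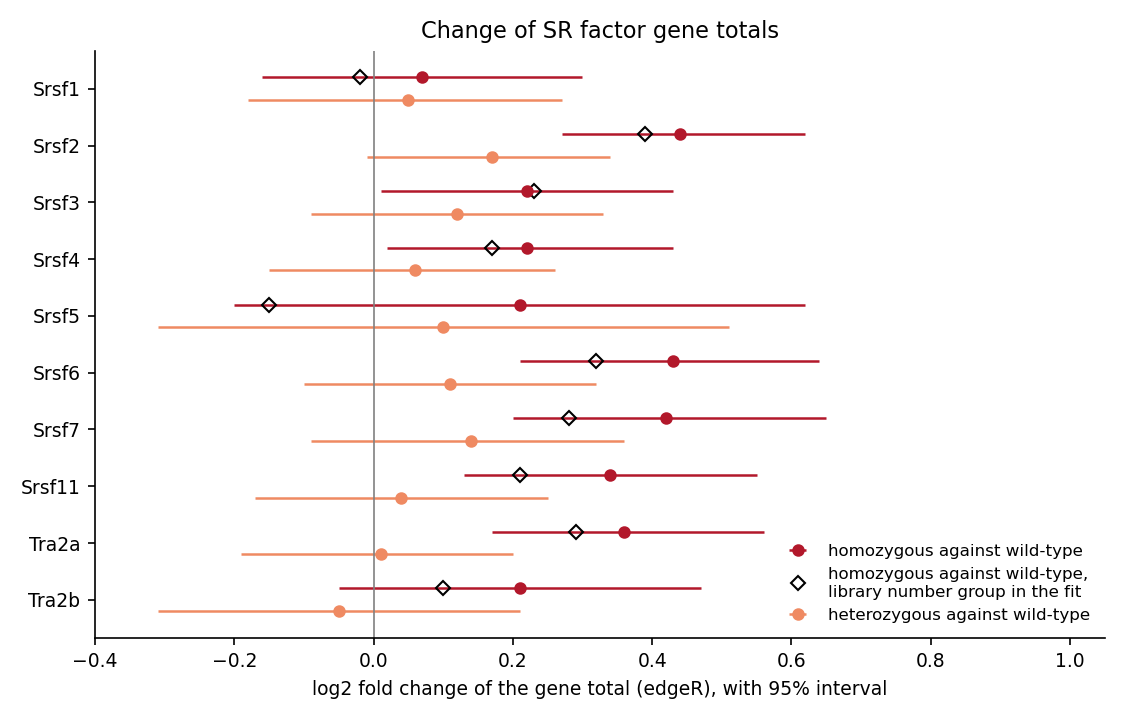
Log2 fold change of each gene total on the x axis, with 95% intervals from edgeR, for homozygous (upper) and heterozygous (lower) against wild-type, and open diamonds for the homozygous estimate with library number group in the fit. Srsf2, Srsf6, Srsf7 and Tra2a have the largest homozygous estimates, 0.36 to 0.44, and with library number in the fit Srsf5 stands at -0.15 and Srsf1 at -0.02.

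Levels of the genes were compared per length. Taking the median CPM per kilobase over each gene's coding parts, Srsf5 (51.2 ± 2.44), Srsf2 (48.6 ± 0.613) and Srsf3 (44.6 ± 5.25) led in homozygous libraries, followed by Srsf6 (24.6 ± 1.62), Srsf1 (20.5 ± 3.86), Srsf7 (19.5 ± 2.36), Tra2b (12.5 ± 2.0), Tra2a (7.87 ± 1.04), Srsf11 (7.62 ± 1.01) and Srsf4 (6.41 ± 0.67; SD, n = 3). In wild-type libraries Srsf5 (44.4 ± 11.6), Srsf3 (39.0 ± 3.81) and Srsf2 (36.6 ± 1.08) led, and Tra2a (4.94 ± 0.515) came last. The ranges of neighbours in this order overlapped in both groups for the leading 3 genes and for Srsf1 and Srsf6, which changed places. In homozygous libraries Srsf1 also overlapped Srsf7, and Tra2a, Srsf11 and Srsf4 overlapped, whereas in wild-type libraries Srsf11 (6.87 ± 0.536), Srsf4 (5.96 ± 0.389) and Tra2a did not.

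The inclusion of a part is given as PSI, the fraction of transcripts that include it. Of the 261 parts, 8 had no PSI in some library, 10 had fewer than 10 reads in some library, 144 stayed above 0.95 and 27 stayed below 0.05 in every library. The other 72 were tested, and 59 of them lie inside introns of the main coding transcript, 20 of these in annotated decay transcripts. None of the 72 was called by limma, where a call needed both a size of 0.1 or more and an adjusted p under 0.05, beside 0.413% of all 55648 parts tested. At an unadjusted p under 0.05 there was 1, beside 4281 of all parts, and the smallest adjusted p was 0.627. Differences ran from -0.0578 to 0.123, with 48 of 72 positive, beside 56.6% over all parts, and a median of 0.00917, beside 0.00346 over all parts. All 3 homozygous libraries lay above all 3 wild-type libraries at 10 of the 72 parts, 13.9% beside 8.12% over all parts, and below them at 2, beside 4.23%. Of the 10 parts 5 lie in Srsf11, all in the same intron, 2 each in Srsf1 and Srsf6 and 1 in Srsf4. Neighbouring parts of a gene share reads, so the 10 are not separate observations.

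**Figure D3:**
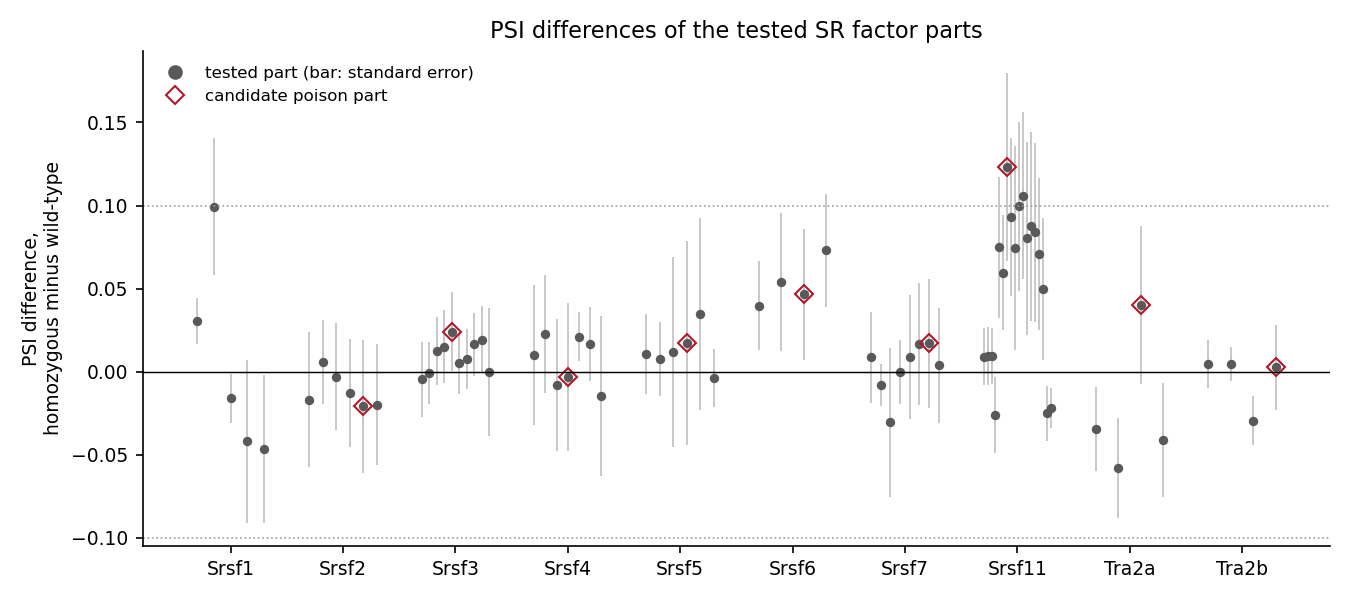
PSI difference, homozygous minus wild-type (y axis), of each tested part of the 10 genes in order of part number, with standard errors from limma, dotted lines at differences of 0.1 in size and diamonds at the candidate poison parts. The largest difference is 0.123 at Srsf11 part 33, and 48 of the 72 points lie above 0.

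For each gene the candidate poison part with the most reads was followed, which gave 9 parts, and none for Srsf1 by the rule used. Srsf1 parts 15 and 16 are in annotated protein-coding transcripts only, between parts 14 and 17, which annotated decay transcripts also hold. Their mean PSI was 0.647 and 0.659 in homozygous and 0.689 and 0.705 in wild-type libraries, with overlapping groups and neither called. In Srsf6, part 7 (103 bases of the exon of 268 bases, chromosome 2, 162774900 to 162775002 on GRCm39, intron 2) had a PSI of 0.480, 0.409 and 0.457 in homozygous, 0.392, 0.342 and 0.391 in heterozygous and 0.408, 0.40 and 0.398 in wild-type libraries. The homozygous libraries were above the wild-type ones by a narrow margin, and the difference of 0.0466 had a 95% interval of -0.0436 to 0.137 (adjusted p = 0.749). Reads in the part were 2.01 ± 0.144 CPM in homozygous and 1.64 ± 0.0988 in wild-type libraries, and junction reads that skip it were 1.46 ± 0.121 and 1.44 ± 0.0975 CPM (SD, n = 3 each). The stop codon shown above lies not in part 7 but in part 6, the first 165 bases of that exon. Part 6 had a PSI of 0.492, 0.376 and 0.45 in homozygous and 0.379, 0.40 and 0.376 in wild-type libraries. These 2 groups overlapped at part 6, with a difference of 0.0542 (-0.0408 to 0.149, limma adjusted p = 0.749).

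In Tra2a, the exon of 306 bases (part 11, chromosome 6, 49229737 to 49230042, intron 1) had a PSI of 0.544, 0.477 and 0.431 in homozygous, 0.449, 0.483 and 0.398 in heterozygous and 0.432, 0.433 and 0.467 in wild-type libraries. The groups overlapped, with a difference of 0.0401 (-0.0688 to 0.149, adjusted p = 0.813). Reads in the exon were 2.18 ± 0.298 CPM in homozygous and 1.53 ± 0.0714 in wild-type libraries, and skipping reads 0.757 ± 0.114 and 0.624 ± 0.0333 CPM. In Srsf7, part 16 (136 bases of the exon of 460 bases, chromosome 17, 80512375 to 80512510, intron 3) had a PSI of 0.375, 0.311 and 0.324 in homozygous, 0.361, 0.278 and 0.319 in heterozygous and 0.355, 0.277 and 0.326 in wild-type libraries. Here the ranges of the groups nearly coincided, and the difference was 0.0171 (-0.0719 to 0.106). Inclusion and skipping reads were both higher on average in homozygous libraries, at 1.93 ± 0.0465 and 2.01 ± 0.322 CPM, against 1.36 ± 0.213 and 1.51 ± 0.134 CPM in wild-type libraries.

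Srsf2 was the called gene whose candidate part had a negative difference. Its exon of 104 bases (part 12, chromosome 11, 116742474 to 116742577, in an intron after the stop codon) had a PSI of 0.424, 0.35 and 0.409 in homozygous, 0.384, 0.322 and 0.374 in heterozygous and 0.393, 0.424 and 0.429 in wild-type libraries, a difference of -0.0208 (-0.113 to 0.0709, adjusted p = 0.91). Inclusion reads were 3.47 ± 0.317 CPM in homozygous and 2.68 ± 0.176 in wild-type libraries, and skipping reads 3.13 ± 0.246 and 2.22 ± 0.218 CPM. Mean reads of both kinds were higher in homozygous libraries. The protein-coding genes Mettl23 and Mfsd11 overlap Srsf2 on the opposite strand, over 3194 and 655 bases, and whether the counting used strand is not given in the sources used here, so reads of Srsf2 and of these genes cannot be told apart.

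**Figure D4:**
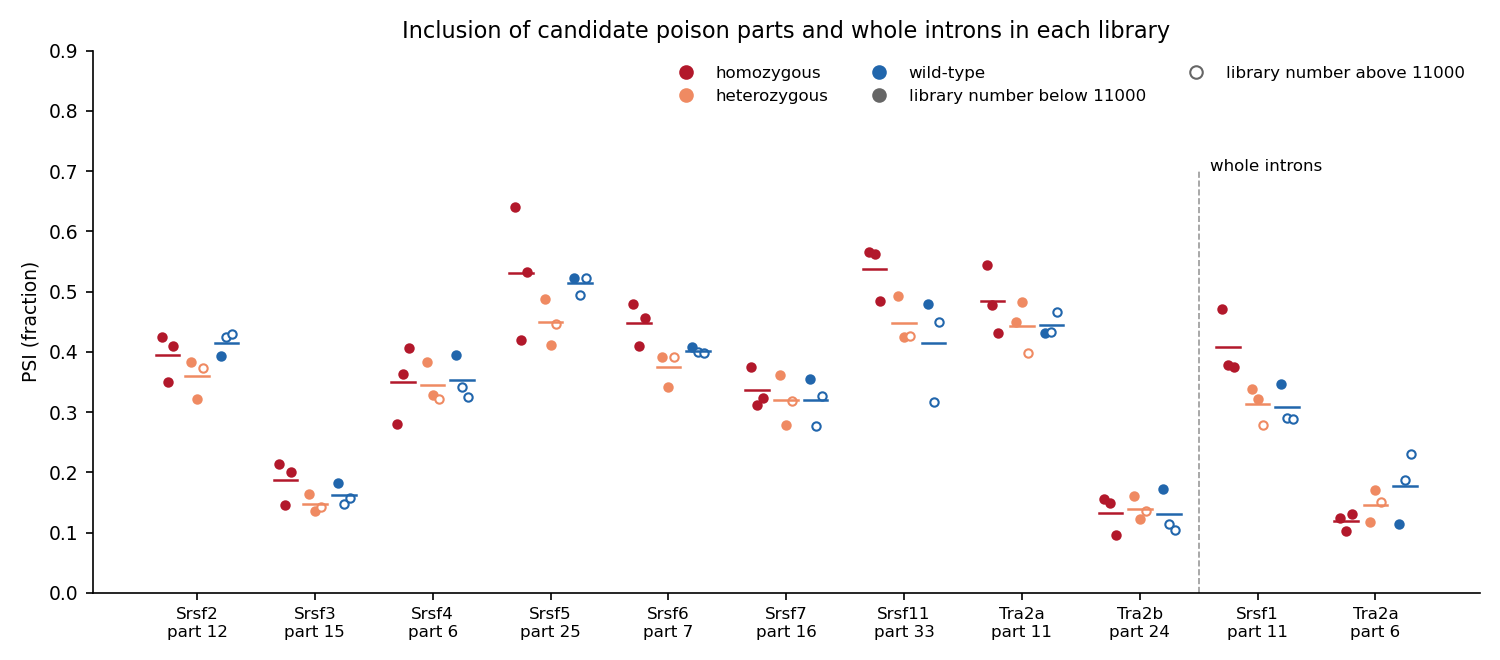
PSI (y axis, fraction) in each library at the 9 candidate poison parts and, right of the dashed line, at the 2 tested whole introns, with homozygous, heterozygous and wild-type libraries from left to right, bars at group means and open symbols for library numbers above 11000. Homozygous and wild-type libraries overlap at 7 of the 9 poison parts, and the homozygous libraries lie above the wild-type ones at Srsf6 part 7, Srsf11 part 33 and the Srsf1 intron.

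In the 4 genes of this set that were not called and carry an annotated poison exon or its pieces, differences at the candidate part lay between -0.00329 and 0.0242 for Srsf3, Srsf4 and Tra2b and reached 0.123 in Srsf11. Srsf3 part 15 (216 bases of the exon of 456 bases, chromosome 17, 29258668 to 29258883) had PSI values of 0.214, 0.146 and 0.201 in homozygous, 0.164, 0.135 and 0.143 in heterozygous and 0.183, 0.148 and 0.157 in wild-type libraries. The Srsf3 stop codon shown above lies in part 13 of the same exon, which averaged 0.155 in homozygous and 0.142 in wild-type libraries. Tra2b part 24, the exon of 276 bases (chromosome 16, 22077736 to 22078011) that the TRA2B protein itself is known to bind, had 0.155, 0.149 and 0.0954 in homozygous, 0.160, 0.122 and 0.136 in heterozygous and 0.173, 0.115 and 0.104 in wild-type libraries. Its difference was the smallest in size of the 9, at 0.00259 (-0.0554 to 0.0606). Srsf4 part 6 (184 bases, chromosome 4, 131612620 to 131612803) averaged 0.35 ± 0.0638 in homozygous and 0.354 ± 0.0365 in wild-type libraries. In Srsf5, which has no annotated cassette, part 25 (376 bases inside intron 5, chromosome 12, 80994903 to 80995278) spread most, with 0.641, 0.419 and 0.532 in homozygous against 0.523, 0.495 and 0.523 in wild-type libraries.

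Srsf11 held the run of parts with the largest differences. Parts 31 to 42 lie in intron 3 of the gene and all 12 had a higher mean in homozygous than in wild-type libraries, by 0.0496 to 0.123, with none called. Neighbouring parts share reads and the junctions that skip them, so the 12 are not separate observations. The exon of 117 bases at part 33 (chromosome 3, 157728880 to 157728996) had a PSI of 0.566, 0.562 and 0.485 in homozygous, 0.493, 0.424 and 0.427 in heterozygous and 0.479, 0.316 and 0.449 in wild-type libraries. The lowest homozygous value was just above the highest wild-type value, and the difference had an interval of -0.00651 to 0.252 (adjusted p = 0.675). Reads in the part were few, at 192 to 250 in homozygous and 130 to 239 in wild-type libraries, and skipping reads numbered 92 to 114 and 115 to 157. That exon lies after the stop codon shown above, which is in the exon of 109 bases at part 38, and part 38 averaged 0.407 in homozygous and 0.327 in wild-type libraries, with overlapping groups.

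**Figure D5:**
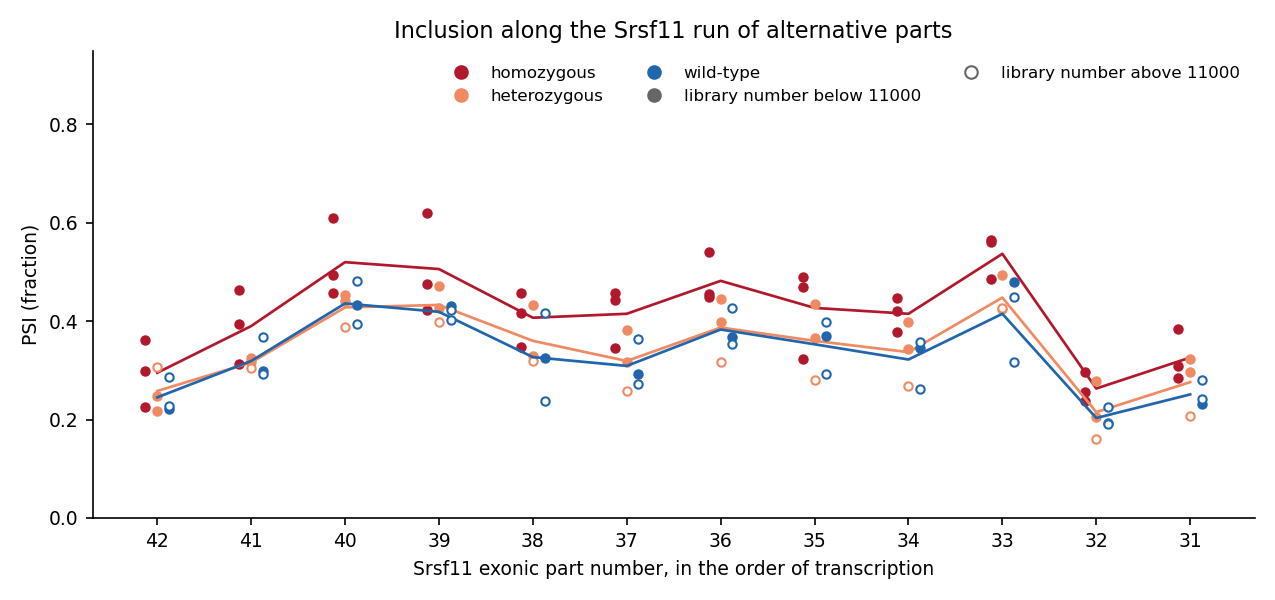
PSI (y axis, fraction) at the tested parts 42 to 31 of Srsf11 in the order of transcription, with points for libraries, open for library numbers above 11000, and lines through group means. The homozygous mean lies above the wild-type mean at all 12 parts, and the homozygous and wild-type libraries overlap at 7 of them.

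In these genes 6 introns are listed as a part from exon to exon, and 2 of them could be tested. In Srsf1, intron 3 (part 11, 196 bases, chromosome 11, 87940042 to 87940237) had a PSI of 0.471, 0.378 and 0.375 in homozygous, 0.339, 0.322 and 0.279 in heterozygous and 0.346, 0.291 and 0.288 in wild-type libraries. All 3 homozygous libraries stood above the other 6, but the difference of 0.0993 (0.00505 to 0.193, unadjusted p = 0.0411) did not pass adjustment (limma adjusted p = 0.627). Intron reads were 2.56 ± 0.647 CPM in homozygous and 2.08 ± 0.214 in wild-type libraries, and skipping reads 1.58 ± 0.221 and 2.01 ± 0.106 CPM (SD, n = 3 each). Intron 5 of Tra2a (part 6, 1238 bases, chromosome 6, 49222545 to 49223782) ran the other way, with 0.124, 0.103 and 0.131 in homozygous, 0.117, 0.170 and 0.151 in heterozygous and 0.115, 0.187 and 0.230 in wild-type libraries. Wild-type replicate 1 lay within the homozygous range, and the difference was -0.0578 (-0.126 to 0.0107). The introns at Srsf3 part 21, Srsf5 part 22 and Tra2b parts 8 and 10 were almost always spliced out, with a mean PSI of 0.00518, 0.000656, 0.00991 and 0.00607 over the 9 libraries.

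Library replicates differed at the candidate poison parts in a shared way. Homozygous replicate 1 had the highest PSI of its group at 8 of the 9 parts and of all 9 libraries at 6, and heterozygous replicate 1 and wild-type replicate 1 were the highest of their groups at 8 and 7. This order was not counted over all parts. Over all tested parts, PSI deviations of replicate 1 from its group mean correlated at 0.0289 between homozygous and heterozygous. Between homozygous and wild-type the value was -0.00528, and between heterozygous and wild-type 0.0119. The median PSI over the 9 parts was 0.424, 0.364 and 0.409 in homozygous, 0.384, 0.329 and 0.374 in heterozygous and 0.395, 0.341 and 0.398 in wild-type libraries. Parts with a mean PSI under 0.1 over the whole table, which are mostly skipped, took 0.572%, 0.508% and 0.507% of inclusion reads in homozygous, 0.413%, 0.418% and 0.446% in heterozygous and 0.407%, 0.443% and 0.460% in wild-type libraries. The part of this share in the PSI values above was not tested.

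The heterozygous against wild-type comparison asked whether 1 edited allele gave the same picture. No gene was called among the 10, nor among all 22049 genes (0% called, edgeR); 0 of the 10 and 712 of all genes had an unadjusted p under 0.05, and DESeq2 called none of the 10 and 22 of all genes. Log2 fold changes ran from -0.05 for Tra2b to 0.17 for Srsf2 (-0.01 to 0.34), with 9 of 10 positive and a median of 0.08. Heterozygous libraries overlapped wild-type ones in 9 genes and not in Srsf2. The share of all genes without such overlap was not counted, so this is a description only. No part was called either, beside 0.0755% of all parts, with 0 of the 72 at an unadjusted p under 0.05, beside 2248 of all parts (limma). Differences ran from -0.0649 at Srsf5 part 25 to 0.0334, and 21 of 72 were positive, beside 47.6% over all parts.

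Set directly against each other, homozygous and heterozygous hearts differed in no member by edgeR, beside 0.948% of all genes called, although 5 of the 10 had an unadjusted p under 0.05, beside 3104 of all 22049 genes. DESeq2 called Srsf2 (adjusted p = 0.0221) and Tra2a (adjusted p = 0.0119) among 950 of all genes. The log2 fold changes were 0.35 for Tra2a (edgeR adjusted p = 0.101), 0.31 for Srsf6 (0.178), 0.31 for Srsf11 (0.181), 0.29 for Srsf7 (0.247) and 0.28 for Srsf2 (0.145). No part was called, beside 0.264% of all parts, with 3 of the 72 at an unadjusted p under 0.05, beside 3858 of all 55648 parts. Differences ran from -0.0331 to 0.0958, and 56 of 72 were positive, beside 57.9% over all parts. These 3 comparisons share libraries and are not independent of each other.

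Other genes of the pathway were counted from lists, which were chosen with earlier results of these data known. Over all 22049 genes, edgeR called 4.39% in homozygous against wild-type hearts and called 1.87% higher. SR proteins are regulated by phosphorylation, and of 12 kinases, phosphatase subunits and importers 3 rose in homozygous against wild-type hearts and none fell. Clk1, a nuclear kinase of SR proteins that is itself kept in check by intron retention, had 145, 128 and 169 CPM in homozygous, 104, 95.5 and 95.5 in heterozygous and 96.3, 102 and 111 in wild-type libraries (log2 fold change 0.51, adjusted p = 0.0264). Srpk3, the muscle SR protein kinase, averaged 45.0 ± 0.818 CPM in homozygous and 30.3 ± 1.93 in wild-type libraries (SD, n = 3 each, log2 fold change 0.57, edgeR adjusted p = 0.00491), and its call held with the library number covariate (adjusted p = 0.0325). Clk4, listed under an identifier joined with an overlapping gene, also rose (log2 fold change 0.50, adjusted p = 0.0188). With the covariate the adjusted p of Clk1 was 0.107 and that of Clk4 0.125. Both Clk1 and Srpk3 were also higher in homozygous than in heterozygous hearts, by 0.58 (adjusted p = 0.0343) and 0.51 (adjusted p = 0.0181) on the log2 scale.

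Of 19 measured further SR and SR-like genes 1 rose, Luc7l, a component linked to the U1 particle, at 41.5 ± 1.1 CPM in homozygous and 28.3 ± 2.32 in wild-type libraries (SD, n = 3 each, log2 fold change 0.55, edgeR adjusted p = 0.0113), and 17 of the 19 estimates were positive, with a median of 0.16. With the covariate its adjusted p was 0.0848. None of 18 genes of nonsense-mediated decay was called by edgeR in either direction, and their median log2 fold change was -0.01. At an unadjusted p under 0.05 there were 5 of the 18, beside 5001 of all 22049 genes. DESeq2 called 1 of the 18, beside 11.7% of all genes. In heterozygous against wild-type hearts neither edgeR nor DESeq2 called a gene of these 3 lists, and 0 had an unadjusted p under 0.05.

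Other groups of genes were counted beside the 10, from lists also chosen with earlier results of these data known. Of 10 heat and cold shock genes 5 rose in homozygous against wild-type hearts and all 10 estimates were positive (median 0.40). Over all genes 1.87% were called higher and the median was 0. Hspa1a, an inducible chaperone, had 19.3, 31.7 and 30.6 CPM in homozygous, 6.89, 8.13 and 8.28 in heterozygous and 12.5, 7.15 and 6.07 in wild-type libraries (log2 fold change 1.67, adjusted p = 0.00646). Hspa1b, Hspb1 and Hsp90aa1 rose by 1.32, 1.08 and 0.50 (adjusted p of 0.014, 0.0146 and 0.0297). With the covariate Hspa1a was called (adjusted p = 0.0387) and these 3 were not (0.0752, 0.111 and 0.175). In heterozygous against wild-type hearts none of the 10 was called by edgeR or DESeq2. There 2 of the 10 had an unadjusted p under 0.05, beside 712 of all 22049 genes. Among 6 nuclear-retained RNAs, 5 of them under joined identifiers, edgeR called none and DESeq2 3, also the number at an unadjusted p under 0.05, and the median was 0.34, with Neat1 at 0.48 (edgeR adjusted p = 0.0596). None of 15 clock genes and none of 10 immediate early genes was called by edgeR, and the medians were 0.07 and 0.03. An unadjusted p under 0.05 held for 3 and 1, beside 5001 of all 22049 genes. DESeq2 called 1 of each, beside 11.7% of all genes. With the covariate edgeR called Fos (log2 fold change -1.59, adjusted p = 0.00822) and Fosb (-2.82, adjusted p = 0.0404) lower. Wild-type replicate 1 had the highest level of both, at 5.84 and 9.66 CPM. Whether handling, temperature or nuclear RNA had a part in the SR factor totals was not tested.

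Among markers of cell types, edgeR called 1 of 7 heart muscle genes, Myl2, a ventricular myosin light chain, which rose (log2 fold change 0.79, adjusted p = 0.0437) but was not called with the covariate (adjusted p = 0.269). DESeq2 called 3 of the 7, and 3 had an unadjusted p under 0.05, among them Ryr2, the calcium release channel, at -0.74 (edgeR adjusted p = 0.0557). No fibroblast, endothelial, smooth muscle, leukocyte, erythroid or atrial marker was called by edgeR, and DESeq2 called 1 endothelial gene. Of these lists 1, 2, 0, 3, 0 and 1 genes had an unadjusted p under 0.05, beside 5001 of all 22049 genes. The atrial genes Myl7, Myl4 and Sln had log2 fold changes of -2.73, -2.28 and -2.77. Nppa, the natriuretic peptide gene that stressed ventricles also express, had 542, 520 and 382 CPM in homozygous, 53.6, 94.2 and 1050 in heterozygous and 86.5, 89.7 and 86.4 in wild-type libraries (log2 fold change 2.46, edgeR adjusted p = 0.12), and made up most of the summed atrial list in homozygous libraries. Summed markers overlapped between homozygous and wild-type libraries for fibroblasts (1110 to 1150 and 938 to 1240 CPM), endothelium (892 to 950 and 804 to 921), smooth muscle (198 to 238 and 195 to 259), leukocytes (45.8 to 55.0 and 47.5 to 72.4) and erythroid cells (5650 to 9060 and 3430 to 8860). The sums did not overlap for heart muscle, given above, or for the atrial list, and both were higher in homozygous libraries. Heart muscle genes did not all rise, with 5 of 7 estimates positive. Myl2 averaged 17400 CPM in homozygous and 10000 in wild-type libraries, while Myh6 was nearly flat (log2 fold change 0.02) and Pln (-0.08) and Ryr2 were lower. Among the leukocyte markers Cd3e was near 0, with group means of at most 0.0889 CPM, as was the atrial gene Sln in homozygous libraries (0.398 CPM). The part of marker levels in the SR factor totals was not tested. In such bulk tissue fewer cells of a type and less RNA per cell cannot be told apart.

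As a description, the genes outside the set whose log2 CPM over the 9 libraries followed the mean standardised profile of the 10 most closely were Sh3bgr (Pearson r = 0.99), Parp2 (0.989), Hnrnpa2b1 (0.988), the unnamed locus Gm36372 (0.986) and Spag7 (0.98). These libraries share genotype and library number, so such values say nothing of shared control. Hnrnpa2b1, an hnRNP protein gene, averaged 611 ± 13.2 CPM in homozygous, 543 ± 32.5 in heterozygous and 521 ± 15.3 in wild-type libraries (SD, n = 3 each), and its log2 fold change of 0.23 was not called (edgeR adjusted p = 0.111). Sh3bgr (0.56, adjusted p = 0.0145) and Gm36372 (0.78, adjusted p = 0.0378) were called, and Parp2 (0.19) and Spag7 (0.20) were not. The shared profile itself was 0.63, 1.13 and 0.98 in homozygous, 0.23, -0.04 and -0.98 in heterozygous and -0.21, -0.93 and -0.82 in wild-type libraries, in units of each gene's SD over the 9. Heterozygous replicate 3 and wild-type replicates 2 and 3, the libraries with numbers above 11000, were the 3 lowest.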

How the data were processed

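The deposited table gives, per exonic part and library, inclusion counts, exclusion counts (junction reads that skip the part), the part length and PSI, which the authors deposited as a fraction. PSI equalled inclusion reads over part length plus 148 bases, divided by that value plus exclusion reads over 148 bases (largest gap 5.0e-07). The submitters' processing notes name cutadapt 1.8, Salmon 1.2.1 and GRCm39 with no role for the tools, and the counting tool is not given in the sources used here. Gene sums can exceed read numbers, since reads spanning several parts may enter more than once. The authors' deposited PSI differences, a score column, were not used.

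Counts were summed per gene and fitted with edgeR 4.0.16 (TMM, filterByExpr, quasi-likelihood) over all 9 libraries, called at adjusted p under 0.05. PSI was fitted with limma 3.58.1 (trend) for parts with 10 or more reads in each library that rose to 0.05 somewhere and fell to 0.95 somewhere, called as stated. Alternatives were DESeq2 1.42.0, other scalings, filters, thresholds and designs, and each library left out; both fits were tested on simulated data. R 4.3.3, Python 3.11.15, pandas 2.3.3 and matplotlib 3.10.9 were used.

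Part kinds, intron numbers and sequences came from GENCODE M21 (GRCm38). For all 10 genes its flattened exons had the same number, lengths and gaps as the table's 261 parts, so parts were matched by number and no coordinate was converted. A candidate poison part is one with a mean PSI under 0.5 inside an intron, shorter than it and denser in reads than its neighbours. All 10 genes were named, with per gene the candidate part and the whole intron of most reads and every called part, from each list up to 4 called genes of smallest p, and the 5 genes of most similar profile; any other part was picked with its values known. The members and lists were chosen with earlier results of these data known.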

Additional observations from a re-analysis of the deposited data

How the results depend on the processing

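The count of 4 member genes called for homozygous against wild-type was 4 or 5 with DESeq2, upper-quartile factors, no low-count filter, only the 2 groups compared, constitutive parts only and the replicate block (5). It fell to 0 with library number as a covariate and ranged from 0 to 4 with each library left out. The share of all genes called was 1.35% with the covariate and 1.3% to 5.81% with each library left out, beside 4.39%. The other member counts were 0 throughout, except 2 with DESeq2 for homozygous against heterozygous. List genes called numbered 9 for homozygous against wild-type, against 21 (DESeq2), 19 (unfiltered genes), 16 (replicate block), 4 with the covariate, 2 within the low library numbers and 2 to 10 with each library left out. For homozygous against heterozygous they numbered 6, against 12, 11, 10, 3, 2 and 0 to 4, and 3 with only those 2 groups. No member part was called under any alternative.

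Srsf1 and Srsf5 turned to -0.02 and -0.15 (log2) with the covariate and to -0.01 and -0.19 within the low numbers. Among parts, Srsf7 part 16 and Tra2b part 24 turned to -0.000754 and -0.02 with the covariate and to -0.0183 and -0.0397 within the low numbers, where Srsf2 part 12 and Tra2a part 6 turned to 0.00189 and 0.00427. With each library left out the differences ranged from -0.0357 to 0.00145 (Srsf2 part 12), -0.0314 to 0.0314 (Srsf4 part 6), -0.0381 to 0.0733 (Srsf5 part 25), -0.00398 to 0.0349 (Srsf7 part 16) and -0.0106 to 0.0237 (Tra2b part 24). The cause of these changes was not tested. Deviations of same-numbered libraries from their group means correlated over genes at -0.365, -0.0211 and 0.363 (homozygous and wild-type), 0.0657, 0.184 and 0.429 (heterozygous and wild-type) and 0.162, 0.743 and 0.356 (homozygous and heterozygous). Over all 3 groups the numbers thus did not pair every library, but all 3 homozygous and heterozygous pairs were above 0.1. Among differently numbered pairs of these 2 groups, homozygous 1 with heterozygous 3 had 0.404 and homozygous 3 with heterozygous 1 had 0.153. The others were negative. Over PSI the 3 same-numbered pairs of these groups were at 0.0289, 0.0211 and 0.0365. With the replicate block the homozygous against heterozygous comparison had 0 member genes, 0 member parts and 10 list genes called. For homozygous against wild-type the replicate block moved the count of all genes called to 2207, beside 969. Fits within the low library numbers, or without a library, assume that a lone or smaller group varies like the others. With 3 libraries a group, PSI intervals at the poison parts span about 0.1 to 0.3.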
